A study of Mus musculus with 9 samples.

Results

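Malat1 and Meg3 encode long noncoding RNAs and are 2 of 12393 genes with a symbol of their own on these arrays. They were read by 10 of 22690 probe sets, 5 for Malat1 and 5 for Meg3, namely every probe set whose platform annotation gives either symbol. The genes were chosen by earlier results of the same arrays, Malat1 by its difference between knockout and heterozygous mice. Their levels and changes are therefore given as a description, with no test. RNA came from layer IV of the barrel cortex, cut out by laser microdissection from C57BL/6 mice at postnatal day 5. They differed in Gap43, which encodes a growth-cone protein of extending axons: wild type mice are called WT, heterozygotes HZ and knockouts KO, and the labels name no other allele or agent. Each genotype had 3 mice and each mouse 1 Affymetrix array, hybridised after 2 cycles of cDNA amplification, so the number of arrays limits the precision.

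Malat1 RNA is made in most cell types, stays in the nucleus and collects at nuclear speckles, the bodies that store pre-mRNA splicing factors. In cultured mouse hippocampal neurons its depletion has been reported to lower synapse number together with the adhesion genes Nlgn1 and Cadm1. Meg3 is expressed from the maternal chromosome of the imprinted Dlk1-Dio3 domain, is abundant in neurons, and has been reported to bind the Polycomb repressive complex PRC2 and, in human cells, to raise p53 activity.

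The promoters of both genes are shown because their RNAs varied together over the arrays, as described further on. Each run holds 250 bases before to 50 bases after the transcript start in RefSeq (GRCm38.p6), and capitals mark the matched motifs. The Malat1 promoter lies at chr19:5802623-5802922 on the minus strand, and the Meg3 promoter at chr12:109540746-109541045 on the plus strand.
Malat1 promoter: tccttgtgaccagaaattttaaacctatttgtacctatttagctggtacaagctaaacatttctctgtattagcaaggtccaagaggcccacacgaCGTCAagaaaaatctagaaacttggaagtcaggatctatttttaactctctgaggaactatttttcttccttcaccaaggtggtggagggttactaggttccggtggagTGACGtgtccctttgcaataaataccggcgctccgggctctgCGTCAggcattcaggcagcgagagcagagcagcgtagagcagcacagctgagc
Meg3 promoter: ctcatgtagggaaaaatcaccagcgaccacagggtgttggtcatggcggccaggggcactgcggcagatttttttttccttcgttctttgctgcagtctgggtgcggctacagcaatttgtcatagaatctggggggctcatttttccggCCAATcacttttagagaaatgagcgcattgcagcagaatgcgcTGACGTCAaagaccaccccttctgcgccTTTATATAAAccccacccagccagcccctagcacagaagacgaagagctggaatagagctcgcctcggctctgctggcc
The motifs searched, on both strands, were the cAMP response element TGACGTCA, its core TGACG, which reads CGTCA on the other strand and lies within the full element, the TATA box TATAAA and the CCAAT box. The Malat1 window held the core at 154, 45 and 3 bases before the start and none of the other motifs. The Meg3 window held the full element 57 bases before the start, TATAAA at 25 bases, its reverse complement TTTATA at 29 bases and CCAAT at 100 bases. Among 32851 mouse promoter windows of the same length, 1.79% held the full element, 20.8% the core, 13.6% TATAAA and 37.4% CCAAT on either strand. A further Meg3 start in RefSeq had none of these letters in its window. A match describes letters and not a bound site.

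The arrays were first checked against their labels. Gap43 signal was 7089, 4746 and 4294 in WT, 5015, 5039 and 4389 in HZ and 979, 1930 and 1299 in KO. The KO arrays lay below all others, by 1.95 on the log2 scale against WT (limma, Benjamini-Hochberg adjusted p = 0.0173) and by 1.82 against HZ (adjusted p = 0.0362). HZ and WT differed by -0.13 (limma adjusted p = 0.915). The first of these calls was lost without WT 1, WT 2, HZ 2 or KO 3 (adjusted p from 0.0502 to 0.0698), with the change between -2.02 and -1.73. The call against HZ was lost when any single HZ array was left out, or KO 1, KO 3 or WT 2 (limma adjusted p from 0.0513 to 0.168), with the change between -1.88 and -1.59. It was also lost with no filter, arrays set to 1 median, quantile normalization or no intensity trend (0.0681 to 0.287). Summed signal of 9 cortical excitatory neuron markers was 14273 to 16220 in WT, 16237 to 16576 in HZ and 14655 to 17612 in KO, and Camk2a was below the filter on low signal. At an unadjusted p under 0.05, 2 of the 8 tested were higher and 2 lower in KO than HZ, where 3.96% and 3.76% of all probe sets were, and none passed the adjusted threshold. Rorb, a transcription factor that marks layer IV, read 529.7 ± 65.2 in WT, 609 ± 95.5 in HZ and 328 ± 27.4 in KO. Its KO arrays lay below all others without passing the test (limma adjusted p = 0.247 against HZ and 0.435 against WT). Cux1, a marker of upper layers and layer IV, had KO minus HZ -0.76 (limma adjusted p = 0.450), and Neurod6, a transcription factor of excitatory neurons, 0.59 (0.542). Summed astrocyte markers, 9 of 9 on the array, gave 24365 to 30369.5 in WT, 24435 to 24984 in HZ and 19385 to 27614 in KO, with 3 of the 8 tested lower in KO than HZ and 5 lower in KO than WT at an unadjusted p under 0.05, where 3.76% and 3.59% of all probe sets were, and none past the adjusted threshold. Summed progenitor markers, 7 of 7 on the array, gave 2113 to 2413 in WT, 2593 to 2850 in HZ and 2637 to 2983 in KO. Genotypes overlapped in the sums of interneuron, oligodendrocyte, microglia, and endothelial and mural markers. The part of these markers in the Malat1 and Meg3 differences was not tested. HZ 2 stood apart in RNA quality: the 3′/5′ signal ratio of its Actb control was 25.1 against 7.80 to 12.4 on the other arrays, and that of Gapdh was 27.9 against 11.5 to 19.5. HZ 2 enters every comparison with HZ, so the Malat1, Meg3 and gene list values of those comparisons are also given without it. Xist and Eif2s3y signal placed 2 females and 1 male in each genotype, the males being WT 3, HZ 1 and KO 1.

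Malat1 signal was highest in KO and lowest in HZ. The ending _s_at marks a probe set shared by several transcripts, _a_at by transcripts of a single gene, and _x_at a probe set with probes that may match unrelated RNAs. On probe set 1418189_s_at, the brightest of the 5, it was 2850.1, 3081 and 5049.9 in WT, 1378, 1119 and 2370.1 in HZ, and 3627, 8147 and 8286 in KO. Every HZ array lay below every WT and every KO array, while KO 1 lay within the WT range. The means were 3660.3 ± 1209 in WT, 1622 ± 660.4 in HZ and 6687 ± 2651 in KO (SD, n = 3 mice each, as for all means below). The SD was widest in KO, but relative to the mean it was 40.7% in HZ, 39.6% in KO and 33.0% in WT.

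On the log2(signal + 16) scale, KO exceeded HZ by 2.01 (SE 0.33), 4.03-fold, and exceeded WT by 0.82 (SE 0.33), while HZ was lower than WT by a log2 change of -1.19 (SE 0.33). Without HZ 2 the KO minus HZ difference was 1.78 and the HZ minus WT difference -0.96. Without KO 1 the KO minus HZ difference was 2.40 and the KO minus WT difference 1.21. In bulk tissue of this kind, fewer cells of a type and less RNA per cell cannot be told apart.

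Probe set 1418188_a_at was designed from the same source sequence as 1418189_s_at, so the pair is not independent. Its signal was 423, 394 and 688 in WT, 247, 131 and 284 in HZ, and 350.3 in KO 1, 1266 in KO 2 and 936 in KO 3. Again every HZ array lay below every WT and KO array, and KO 1 lay below every WT array while KO 2 and KO 3 lay above them. The KO minus HZ change was 1.75 (SE 0.40), KO minus WT 0.61 (SE 0.40) and HZ minus WT -1.15 (SE 0.40). KO minus WT depended on single KO mice, at 0.23 without KO 2 and 1.14 without KO 1. Without HZ 2, KO minus HZ was 1.44 and HZ minus WT -0.84.

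Another pattern appeared on the remaining Malat1 probe sets that passed the filter, which come from other source sequences. Probe set 1438403_s_at read 99.0, 177 and 160.0 in WT, 59.1, 133 and 153 in HZ, and 342, 719.9 and 293 in KO. Here every KO array lay above every WT and HZ array, and HZ and WT overlapped. KO exceeded HZ by 1.81 (SE 0.36) and WT by 1.46 (SE 0.36), and HZ minus WT was -0.35 (SE 0.36), which became 0.02 without HZ 1. Without HZ 2, KO minus HZ was 1.94 and HZ minus WT -0.48.

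Probe set 1452378_at read 177, 209 and 246 in WT, 234, 210.2 and 243 in HZ, and 264, 334 and 328 in KO. KO again lay above both other genotypes with no overlap, but by smaller amounts, 0.40 (SE 0.18) against HZ and 0.52 (SE 0.18) against WT. HZ minus WT was 0.12 (SE 0.18), the only mean change among the kept Malat1 probe sets in which HZ was above WT, and 0.01 without WT 1. Without HZ 2, KO minus HZ was 0.35 and HZ minus WT 0.18. The fifth Malat1 probe set, 1427285_s_at, shares a source sequence with 1452378_at. It read 12 to 55.0 over the 9 arrays, below the filter, with overlapping groups and a KO minus HZ change of -0.06.

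**Figure D1:**
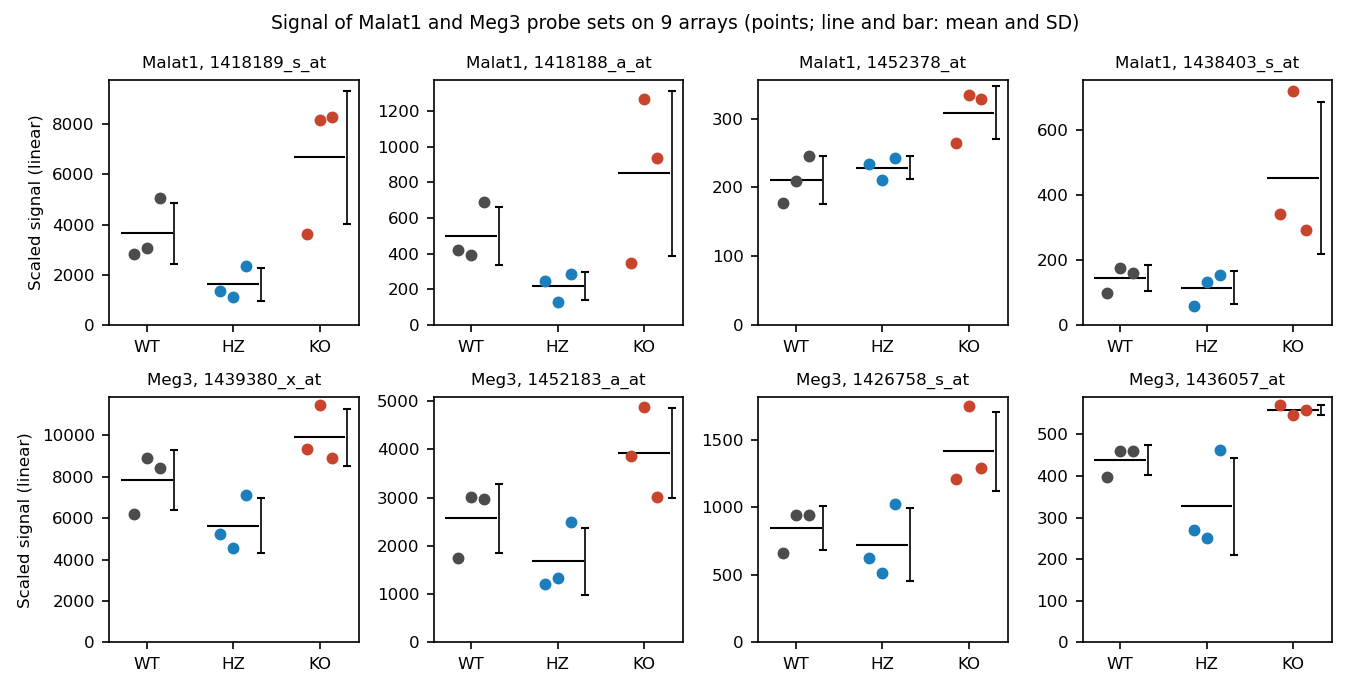
Signal of the 8 Malat1 and Meg3 probe sets that passed the filter (linear axis from 0), with 1 point per array in WT, HZ and KO, a line at each genotype's mean and a bar for the SD. On Malat1 1418189_s_at the HZ arrays, 1119 to 2370.1, lie below all others; on all 4 Meg3 panels the KO arrays lie above all others.

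Meg3 signal was also highest in KO and lowest in HZ. Its brightest probe set, 1439380_x_at, read 6190.0, 8892 and 8427 in WT, 5236, 4540 and 7118 in HZ, and 9337, 11482 and 8921 in KO. Every KO array lay above every other array, and HZ 3 lay within the WT range. The means were 7836 ± 1445 in WT, 5631 ± 1334 in HZ and 9913 ± 1375 in KO. KO exceeded HZ by 0.83 (SE 0.18) and WT by 0.35 (SE 0.18), and HZ minus WT was -0.48 (SE 0.18). Without HZ 2 the KO minus HZ change was 0.69 and the HZ minus WT change -0.34. KO minus WT was 0.19 without WT 1.

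The other kept Meg3 probe sets had the same order of genotype means. Probe set 1452183_a_at read 1743, 3012 and 2965 in WT, 1215, 1332 and 2487 in HZ, and 3854, 4885 and 3023 in KO, and its KO minus HZ change, 1.27 (SE 0.28), was the largest of the kept Meg3 probe sets (1.14 without HZ 2). KO minus WT was 0.62 (SE 0.28), and 0.36 without WT 1. HZ minus WT was -0.65 (SE 0.28), -0.52 without HZ 2. KO 3 lay just above the highest WT array, WT 2. Probe set 1426758_s_at, from the same source sequence, read 662, 939.6 and 945 in WT, 624, 517 and 1027 in HZ, and 1209, 1749.8 and 1288 in KO. Its changes were 1.0 (SE 0.25) for KO minus HZ, 0.73 (SE 0.25) for KO minus WT and -0.27 (SE 0.25) for HZ minus WT. The last of these depended on single arrays, at -0.06 without HZ 2 and -0.55 without HZ 3, and KO minus HZ was 0.79 without HZ 2.

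The KO arrays were closest to each other on Meg3 probe set 1436057_at, with 571, 545 and 558, against 396, 460.5 and 459 in WT and 269.9, 250.4 and 462 in HZ. HZ 3 lay just above the highest WT array there, and HZ 1 and HZ 2 lay below all of WT. The KO minus HZ change was 0.79 (SE 0.21), and 0.64 without HZ 2. KO minus WT was 0.34 (SE 0.21) and HZ minus WT -0.45 (SE 0.21), the latter -0.30 without HZ 2 and -0.72 without HZ 3. The last Meg3 probe set, 1436713_s_at, read 2.6 to 41.8, below the filter, and its genotypes overlapped.

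**Figure D2:**
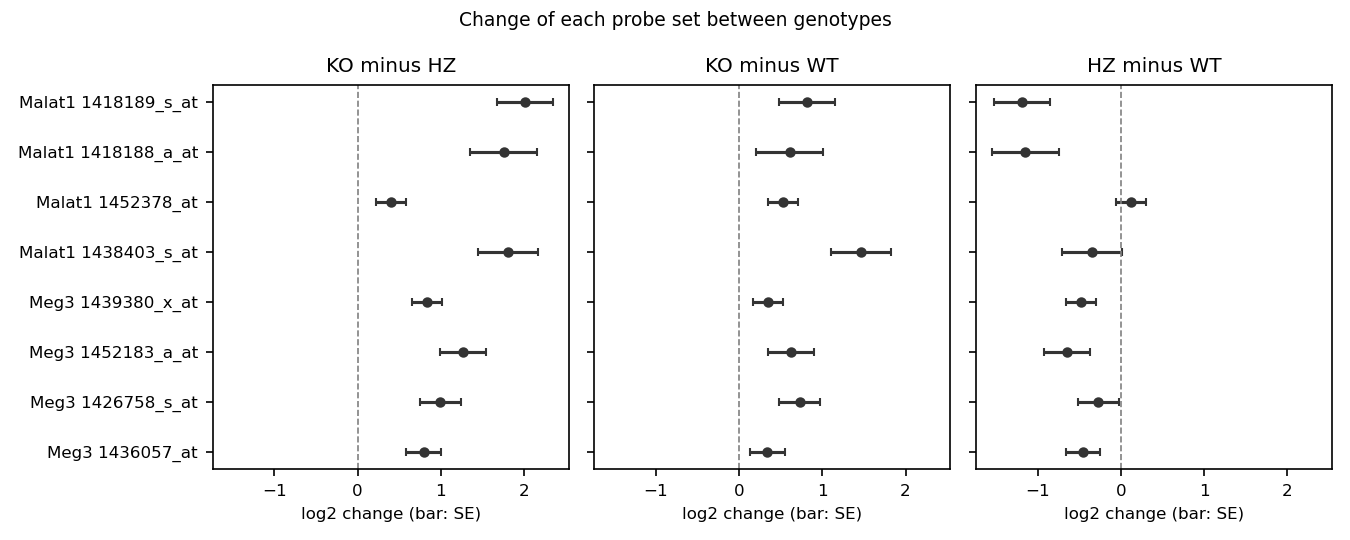
Log2 change of each of the 8 kept probe sets between genotypes, with the SE as a bar. All 8 points lie above 0 for KO minus HZ (0.40 to 2.01) and for KO minus WT, and 7 of 8 lie below 0 for HZ minus WT, the exception being Malat1 1452378_at at 0.12.

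Of the 10 probe sets, 8 passed the filter on low signal, 4 for each gene. The genotype mean was highest in KO on 8 of 8 and lowest in HZ on 7 of 8. For KO against HZ, the median change was 1.78 over the 4 Malat1 probe sets and 0.91 over the 4 Meg3 probe sets, against -0.02 over all 13576 probe sets tested. The KO and HZ arrays did not overlap on 8 of 8, KO being higher, where 6.67% of all probe sets tested were higher without overlap and 7.35% lower. Without HZ 2 the medians were 1.61 and 0.74. None of the 8 passed an adjusted p of 0.05 in KO against HZ, where 0.00737% of probe sets did, namely 1, Gap43. This contrast chose Malat1, so nothing is read from these counts.

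For KO against WT, the median changes were 0.71 for Malat1 and 0.48 for Meg3, with 0.02 over all probe sets. KO was higher without overlap on 2 of 4 Malat1 and 4 of 4 Meg3 probe sets, where 7.83% of all probe sets tested were higher without overlap and 5.83% lower. None of the 8 passed the adjusted threshold (0.00737% of all probe sets did). For HZ against WT, the medians were -0.75 for Malat1 and -0.47 for Meg3, with 0.03 over all probe sets, and without HZ 2 they were -0.66 and -0.32. HZ was lower without overlap on the Malat1 pair 1418189_s_at and 1418188_a_at and on 0 of 4 Meg3 probe sets, where 4.39% of all were lower without overlap and 8.51% higher. No probe set at all passed in HZ against WT by limma (0%, smallest adjusted p = 0.636), although 551 were higher and 293 lower at an unadjusted p under 0.05. The KO comparisons share their arrays, as do the others, so the 3 sets of values are not independent.

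Individual arrays kept much the same place on both genes. KO 2 was the highest of the 9 arrays on 3 of 4 Malat1 and 3 of 4 Meg3 probe sets, and HZ 2 the lowest on 2 of 4 and 3 of 4. HZ 3 was the highest HZ array on 8 of 8. KO 1 was the lowest KO array on 3 Malat1 probe sets but on 1 Meg3 probe set, so the lower Malat1 signal of that mouse was not matched by Meg3.

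Probe sets of the same gene were compared by Pearson's r of their log2 signal over the 9 arrays, as a description in which the points share amplification and scaling. The 6 Malat1 pairs gave 0.68 to 0.96 (median 0.74), the highest being the pair of shared source. The 6 Meg3 pairs gave 0.90 to 0.98 (median 0.94). After each genotype's mean was removed, the medians were 0.61 for Malat1 and 0.87 for Meg3. The difference between the genes in these values was not tested.

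**Figure D3:**
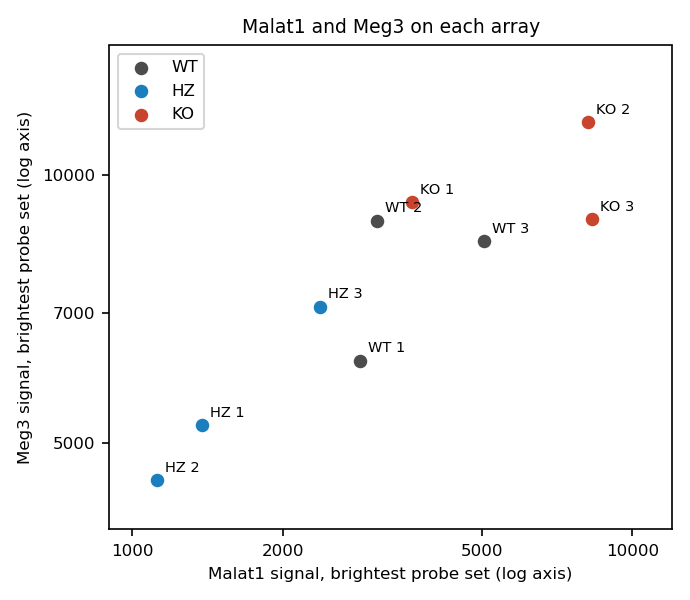
Signal of Malat1 1418189_s_at (x axis) against that of Meg3 1439380_x_at (y axis), both on log axes, 1 labelled point per array, coloured by genotype. HZ 1 and HZ 2 lie lowest on both axes and KO 2 highest on Meg3 (r = 0.89 over 9 arrays).

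Across the genes, Malat1 1418189_s_at and Meg3 1439380_x_at had r = 0.89 over the 9 arrays, and 0.615 on deviations from the genotype means. The 16 pairs of a Malat1 with a Meg3 probe set ranged from 0.58 to 0.89. Among 8502 other genes, each read by its brightest probe set, Meg3 ranked 7 by likeness to Malat1, after Cab39 (r = 0.94), Ahi1 (0.92), Arglu1 (0.92), Epb41l4b (0.91), Stau1 (0.90) and Nktr (0.90). Arglu1 encodes a nuclear regulator of splicing and transcription, Stau1 a double-stranded RNA-binding protein and Nktr a cyclophilin with arginine/serine repeats. Likeness to Meg3 was led by Lama5 (0.96), a laminin chain, Mylk (0.93), a myosin light chain kinase, Slc50a1 (0.92), Gyg (0.92) and Celf2 (0.92), a splicing regulator. Arglu1 was again high (0.91), and Malat1 ranked 11. The gene least like both was Ube2n, a ubiquitin-conjugating enzyme, with r = -0.93 for Malat1 and -0.94 for Meg3. Gap43 gave -0.62 with Malat1 and -0.65 with Meg3. These 9 points share libraries, and so many genes were searched that a high r is a description alone.

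The signals of both genes were set beside the RNA quality of the arrays. With the Actb 3′/5′ ratio, Malat1 had r = -0.40 (exact permutation p = 0.292) and Meg3 r = -0.29 (exact permutation p = 0.466). Spearman's rho was -0.30 and 0.00. With the Gapdh ratio r was -0.21 (exact permutation p = 0.601) and -0.17 (exact permutation p = 0.679), and rho was 0.02 and 0.13. All 4 values of r had a 2-sided adjusted p of 0.679 by exact permutation. Without the 2 arrays farthest from the median ratio, HZ 2 among them, r turned positive, at 0.34 and 0.67 for Actb and 0.38 and 0.68 for Gapdh, so the negative sign rests on those arrays. Within genotypes r was -0.51 and -0.25 for Actb and -0.45 and -0.33 for Gapdh (exact permutation, adjusted p from 0.509 to 0.727).

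Control probe sets for the mouse B1 and B2 repeats and for 18S rRNA were added to this comparison after the data were seen, which made 8 further relations. The brighter B2 control read 13863, 19472 and 16662 in WT, 14503, 16267 and 17017 in HZ, and 17749, 20546 and 18529 in KO, so every KO array was above every HZ array. It gave r = 0.79 with Meg3 (exact permutation p = 0.0127, adjusted 0.0517) and rho = 0.85 (exact permutation p = 0.00607, adjusted 0.0486). The r was 0.76 without the 2 farthest arrays and 0.73 within genotypes (exact permutation, adjusted p = 0.222). Malat1 gave r = 0.63 with it (exact permutation p = 0.0705, adjusted 0.137) and rho = 0.67. The dimmer B2 control gave r = 0.79 with Meg3 (exact permutation, adjusted p = 0.0517). With Malat1 it gave 0.60 (adjusted 0.137), and 0.25 without the 2 farthest arrays. B1 gave 0.69 with Meg3 and 0.48 with Malat1 (adjusted 0.106 and 0.257), and 18S rRNA -0.30 and -0.44 (adjusted 0.424 and 0.275). Permuting all 9 arrays mixes genotypes, and KO lay above HZ in both Meg3 and the brighter B2 control. Nothing is therefore read from these p-values. The part of B2-bearing RNA in the differences between genotypes was not tested.

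The genes around and linked to both RNAs were described from lists drawn up for their known biology. Of the Dlk1-Dio3 domain, Dlk1, which encodes a paternally expressed Notch-family ligand, read 115 ± 11.5 in WT, 159.9 ± 26.6 in HZ and 139 ± 36.7 in KO, and KO minus HZ was -0.20 (SE 0.23). Rian, a maternally expressed noncoding RNA of the same domain, read 561 ± 221 in WT, 589 ± 141 in HZ and 555 ± 131 in KO on its brightest probe set, a KO minus HZ change of -0.08 (SE 0.27). The genotypes overlapped on that Rian probe set. The other Rian probe sets had KO minus HZ changes of 0.32 and 0.57, and on the latter KO minus WT was 0.34 and HZ minus WT -0.23, the order of means seen for Meg3. The 2 genes tested beside Meg3 were Dlk1 and Wars, a tryptophanyl-tRNA synthetase gene. Wars had KO minus HZ 0.25 (limma adjusted p = 0.804). Of 21 imprinted genes tested, 10 were above 0 in KO minus HZ, where 46.6% of all probe sets were, with a median of -0.03 (12 and 0.02 without HZ 2). Grb10, a growth factor receptor adaptor, had 0.59 (limma adjusted p = 0.534), Usp29, a ubiquitin protease gene, 0.43 (0.597) and Magel2, a paternally expressed gene of the Prader-Willi region, -0.36 (0.660).

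Neat1, the paraspeckle RNA transcribed beside Malat1, was below the filter, so the arrays give it no usable level. Of 9 genes tested from the 20 listed beside Malat1, 4 had a KO minus HZ change above 0 (median -0.06, or -0.12 without HZ 2), where 46.6% of all probe sets did. A KO minus WT change above 0 was seen for 8 (median 0.23), where 53.7% of all probe sets had one. Among the 9, Ltbp3, a TGF-beta binding protein, had KO minus HZ 0.40 (limma adjusted p = 0.645), Ehbp1l1 0.29 (0.702; -0.15 on its other probe set) and the carrier gene Slc25a45 -0.22 (0.809). Cadm1, a synaptic adhesion gene linked to Malat1, had KO minus HZ 0.31 (limma adjusted p = 0.645), and Nlgn1 was below the filter.

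Genes for proteins of nuclear speckles, where Malat1 RNA collects, mostly had a little more RNA signal in KO than in HZ on their brightest probe sets. Of 23 tested, each on its brightest probe set, 20 were above 0 in KO minus HZ (median 0.18). Over all probe sets tested, not only the brightest of each gene, 46.6% were above 0, with a median of -0.02. Further kept probe sets of the same genes differed in sign. As examples, they gave -1.05, 0.03 and 0.58 for Srsf2, -0.18 and -0.14 for Srsf10, and 0.41, 0.53 and 0.46 for Son. For Srsf3, which had 0.28 on its brightest probe set, they gave -0.01, -0.11, -0.21, -0.15 and 0.09. None of the 23 passed the adjusted threshold. At an unadjusted p under 0.05, 4 were higher and 0 lower, where 3.96% of all probe sets were higher and 3.76% lower. Without HZ 2, 19 were above 0 (median 0.09) and 6 higher at that threshold. Son, a scaffold of the speckle, read 1210.2 ± 119.9 in WT, 992 ± 117 in HZ and 1516 ± 76.3 in KO, a KO minus HZ change of 0.61 (SE 0.15, limma adjusted p = 0.336). Luc7l3, a splicing factor, had 0.52 (limma adjusted p = 0.345; 0.12 on its other probe set), and Srrm1, a splicing coactivator, 0.59 (limma adjusted p = 0.441; -0.0034 on another kept probe set). In KO minus WT, 17 were above 0, where 53.7% of all probe sets were. At the unadjusted threshold 6 were higher, where 4.43% of all were higher and 3.59% lower. In HZ minus WT 12 were above 0 (median 0.01), where 55.3% of all probe sets were. There 1 was higher at that threshold, where 4.06% of all were higher and 2.16% lower. Without HZ 2 the HZ minus WT count above 0 was 16 (median 0.04), with 0 higher and 2 lower at that threshold.

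Genes of paraspeckle components gave a like picture on the brightest probe set of each, with 10 of 11 above 0 in KO minus HZ (median 0.28). Over all probe sets tested, 46.6% were above 0 in that comparison. At an unadjusted p under 0.05, 3 of them were higher, where 3.96% of all probe sets were. None of the 11 passed the adjusted threshold. Without HZ 2, 9 were above 0 (median 0.31) and 4 higher at an unadjusted p under 0.05. In KO minus WT, 10 were also above 0 (median 0.32), where 53.7% of all probe sets were. At the unadjusted threshold 3 were higher there, where 4.43% of all were. In HZ minus WT 7 were above 0 (median 0.07, or 0.02 without HZ 2), where 55.3% of all probe sets were. Ewsr1, an RNA-binding protein of the FET family, read 1924 ± 158 in WT, 1691 ± 205 in HZ and 2840.2 ± 461 in KO (KO minus HZ 0.74, limma adjusted p = 0.250). Sfpq, a core paraspeckle protein, had 0.56 (limma adjusted p = 0.450), and -0.01, 0.81, 0.33 and 0.61 on its other kept probe sets. Hnrnph1, a splicing regulator, had 0.92 (limma adjusted p = 0.539). Of 24 other long noncoding RNAs listed, 11 were on the array and 7 passed the filter. Of these 7, 5 were above 0 in KO minus HZ (median 0.35, or 0.26 without HZ 2), where 46.6% of all probe sets were. At an unadjusted p under 0.05, 2 were higher (1 without HZ 2), where 3.96% of all probe sets were. The median of 0.35 was the value of Xist itself (SE 1.18), which differed by sex. It read 187 to 346 on the male arrays and 2287 to 5214 on the female arrays, so this median says little about the list. Snhg11, the transcript of a small nucleolar RNA host gene, read 1096 ± 249 in WT, 834 ± 136 in HZ and 1705 ± 676 in KO, with every KO array above every HZ array (KO minus HZ 0.96, limma adjusted p = 0.356). Snhg1 had 0.65 (limma adjusted p = 0.542), Gas5 0.42 (0.668) and Pvt1 -0.58 (0.808).

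In KO minus HZ, genes of the partners reported for Meg3 were centred near 0. Of 10 PRC2 genes, 3 were above 0 in KO minus HZ (median -0.05), and of 7 p53 target genes, 2 were (median -0.08). Over all probe sets tested, 46.6% were above 0 in that comparison, with a median of -0.02. The PRC2 subunit Eed had -0.28, the histone methyltransferase Ezh1 0.24 and the histone-binding Rbbp7 0.13 (limma adjusted p from 0.790 to 0.847). Of the p53 targets, Ccng1 had -0.37, Sesn1 -0.36 and Btg2 0.36 (limma adjusted p from 0.760 to 0.794). Further kept probe sets differed in sign or size, at -0.16 and 0.12 for Ccng1, 0.12 and -0.05 for Sesn1 and -0.14 for Btg2. No gene of either list passed an unadjusted p of 0.05 in KO minus HZ, although 1 p53 target was lower at it without HZ 2. Without HZ 2, 4 PRC2 genes and 3 p53 targets were above 0 in KO minus HZ (medians -0.02 and -0.01). In KO minus WT, 8 PRC2 genes and 4 p53 targets were above 0 (medians 0.18 and 0.07), where 53.7% of all probe sets were. At an unadjusted p under 0.05, 1 p53 target was lower there, where 3.59% of all were. In HZ minus WT, 6 and 2 were above 0 (medians 0.18 and -0.03), where 55.3% of all were. There 1 PRC2 gene was higher at that threshold, where 4.06% of all were.

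**Figure D4:**
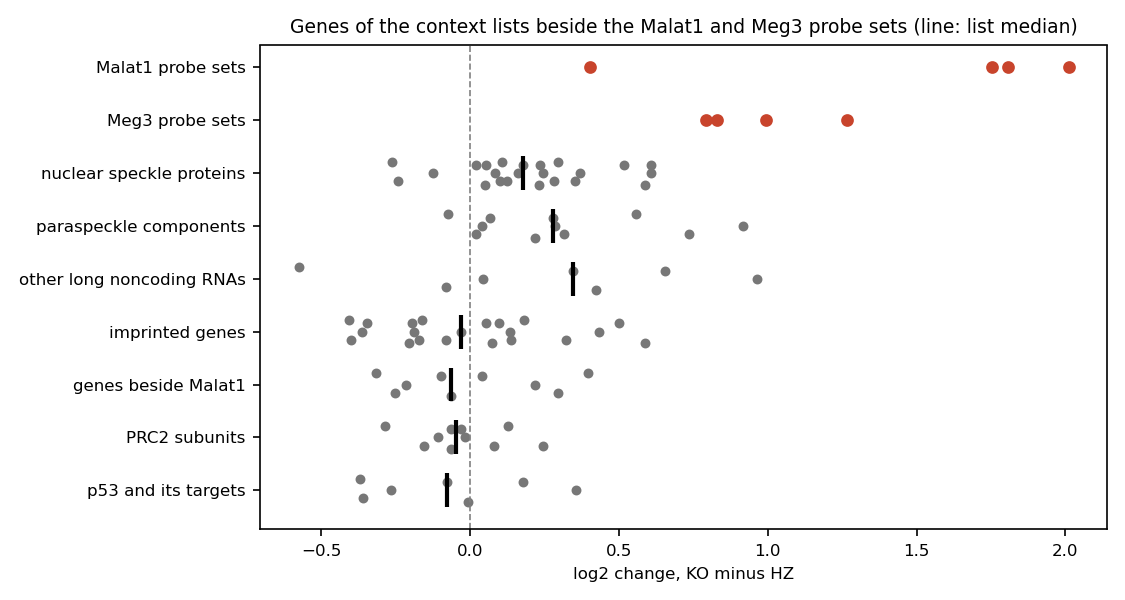
Log2 change in KO minus HZ of each tested gene in the lists around Malat1 and Meg3, 1 grey point per gene (its brightest probe set) with a line at each list's median, below the 4 kept Malat1 and 4 kept Meg3 probe sets in red. The nuclear speckle list (20 of 23 above 0) and the paraspeckle list (10 of 11) sit above 0, and the PRC2 and p53 target lists are centred near 0. Over all probe sets tested, 46.6% were above 0.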

How the data were processed

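Scaled array intensity per probe set, on a linear scale, was deposited by the authors, and the submitters' processing notes name MAS5 and Expression Console from Affymetrix. The trimmed mean was 500.2 on every array, so each array had already been scaled, and such scaling sets an overall shift in RNA amount to 0. A genome build for the probe sets was not given in the sources used here. Symbols came from the platform annotation, in which 20380 probe sets had 1 symbol, 691 several and 1555 none.

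Here, 13576 of 22626 non-control probe sets were kept, the top 60% by mean log2 signal (lowest geometric mean 116.8). Genotype was fitted to log2(signal + 16) on all 9 arrays in limma 3.58.1 (R 4.3.3; lmFit, eBayes with trend; 6 residual and 6.94 prior degrees of freedom), with Benjamini-Hochberg adjustment over the kept probe sets and a threshold of 0.05. Fold changes on this scale understate those of low signals. P-values measure the spread among these mice, 3 per genotype. Correlations with RNA quality used exact permutation of the 9 arrays, 2-sided. The fit was tested on simulated data.

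Both genes, the gene lists and the rules were chosen with earlier results of these data known. All Malat1 and Meg3 probe sets were named, with Gap43, the 3 genes of smallest p in KO against HZ of each list of linked or neighbouring genes (5 for long noncoding RNAs; every gene of short lists), and the genes most and least correlated with each RNA. Alternatives changed the pseudocount, filter, normalization, weights, trend, probe set choice, replicate block and arrays included. Sex as a term and the gene lists without HZ 2 were added after the data were seen. Rorb, Cux1 and Neurod6 were named after their values were seen.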

Additional observations from a re-analysis of the deposited data

How the results depend on the processing

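The changes of the brightest Malat1 and Meg3 probe sets kept their direction in all 19 alternatives for each of the 3 comparisons. Several of these could not move a change, so they say nothing about its stability. They were no filter, no intensity trend, the replicate block, the sex term and leaving out an array of the genotype not compared. Averaging all probe sets of the gene gave Malat1 1.18 in KO against HZ and -0.49 in HZ against WT, and Meg3 0.61 in KO against WT and -0.27 in HZ against WT. Leaving out each array in turn gave Malat1 1.78 to 2.40 in KO against HZ, 0.62 to 1.21 in KO against WT and -1.50 to -0.94 in HZ against WT. For Meg3 the same ranges were 0.69 to 1.01, 0.19 to 0.45 and -0.67 to -0.34. The Gap43 change in KO against WT ranged from -2.20 to -1.72 without each array. It stayed at -1.95 with no filter and with no intensity trend but lost its call in both (limma adjusted p = 0.204 and 0.0824). The probe sets past the adjusted threshold in KO against WT numbered 1, and 0 with no filter or no trend and 5 with array weights. In HZ against WT 0 passed, and 3 did with array weights. In KO against HZ 1 passed, and 0 did with no filter, with arrays set to 1 median, with quantile normalization or with no trend. Without each array these counts ran from 0 to 2 in each comparison. KO against WT gave 0 without WT 1, HZ 2 or KO 3 and 2 without KO 1, HZ against WT 2 without WT 2 and 1 without KO 1, and KO against HZ 0 without WT 2, HZ 2 or HZ 3 and 2 without KO 3. The causes were not tested. Over the kept probe sets, same-numbered arrays did not deviate together (correlations from -0.26 to 0.11). The labels give replicate numbers alone, so whether these pair the mice is not known. With a replicate block 2 probe sets passed in KO against HZ, and the Malat1 change stayed at 2.01, which a balanced block cannot alter. Of the 8 kept Malat1 and Meg3 probe sets, 0 passed in KO against HZ, but 1, Malat1 1418189_s_at, did with the block and without KO 1. Since that contrast chose Malat1, nothing is read from this. With 3 mice per genotype, and with Neat1 and 2 of the 10 probe sets below the filter, small changes and dim transcripts were beyond these arrays.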
